A study of Drosophila melanogaster with 15 samples.

Results

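The genes described here are 47 of the 17453 genes counted in RNA from heads of *Drosophila melanogaster* males. They belong to 5 families of secreted digestive enzymes, and membership was set by the FlyBase symbol and not by a measured value. The families are 16 Jonah proteases (symbols that start with Jon and a number), 11 trypsins (symbols that end in Try), 10 maltases (Mal-A and Mal-B), 3 amylase genes (Amy) and 7 lysozymes (Lys followed by 1 capital letter). The study deleted the genes of cystathionine beta-synthase (CBS) and cystathionine gamma-lyase (CSE), enzymes of the pathway that makes hydrogen sulfide, by CRISPR/Cas9, and asked how expression in the head changed. Polyadenylated RNA came from about 100 heads per replicate of naive males of 5 days, in 15 libraries. The groups were CBS-/-(5) with replicates 1 and 3, CBS-/-(8) with replicates 1, 2 and 5, the double deletions CBS-/-CSE-/-(1) with replicates 1, 2 and 3 and CBS-/-CSE-/-(2) with replicates 2 and 4, CSE-/- with replicates 1, 3 and 4, and the control, labelled WT, with replicates 1 and 3. The control is strain 58492. It carries the alleles y1 of yellow, w1118 of white and DNAlig4169 of DNAlig4, and at ZH-2A the insertion M{Act5C-Cas9.P RFP-}, in which the Act5C promoter drives Cas9. According to the study the deletion strains also carry mutations in yellow and white. Each deletion strain is a separate line, so what a line carries beside its deletion cannot be told apart from the deletion, except where 2 lines of 1 genotype are compared.

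Jonah proteases and trypsins are serine proteases that cut dietary protein, mostly after aromatic or basic residues. Amylases cut starch into maltose and short glucans, and maltases release glucose from these. The lysozymes LysB, LysD and LysE are made in the midgut, where they attack the walls of ingested bacteria, whereas LysP is known from the adult salivary gland. All these enzymes are best known from the gut and its glands.

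The genes lie in 13 clusters, counting as 1 cluster the genes of a family no more than 50000 bp apart. Coordinates are those of the Ensembl annotation of BDGP6, which uses the dm6 sequence, release 115. All 11 trypsins sit within 20.7 kb of chromosome 2R (11336840 to 11357537). Mal-A1 to Mal-A8 lie within 24.3 kb of 2R (8449664 to 8473961), and Mal-B1 and Mal-B2 within 5.66 kb of 2L (11847226 to 11852881). The 7 lysozymes span 33.5 kb of 3L (1194739 to 1228238). Chromosome 2R carries 23 of the members, 3L 14, and 2L and 3R 5 each. Several members are near-identical copies, such as Amy-p and Amy-d, gammaTry and deltaTry, and LysB, LysD and LysE. Reads that fit more than 1 copy may have been lost or split between them, so single values of these copies are uncertain. The gene gammaTry had 0 counts in all libraries, which by counting error alone allows up to 3 counts in each. Since reads shared with deltaTry may have been lost, the 0 sets no upper limit on its level. The exons of Jon44E, Amyrel, Mal-A1, Mal-A8 and deltaTry overlap a gene on the other strand, as do those of LysC and LysD with each other, and the strand setting of the count is not given in the sources used here.

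The libraries held 6850445 to 21144213 reads assigned to genes (median 10285508). Levels are given in CPM, the counts per 1000000 of these reads, and 3 counts, the floor used for a library, are 0.142 to 0.438 CPM. The deleted genes matched the labels in all libraries: CBS had 0.262 to 2.60 CPM in the 4 strains that lack it and 84.3 to 112 CPM in CSE-/-, against 166 to 167 CPM in WT. CSE had 0.681 to 1.64 CPM in the strains that lack it, against 31.4 to 31.8 CPM in WT. Markers of neurons, glia and photoreceptors, 14 genes, were all present and summed to 30746 to 52131 CPM in the deletion strains and 28091 to 31873 CPM in WT. Most of the sum came from Arr2, ninaE and trp (mean 14917, 13997 and 5777 CPM), against 3.93 CPM for elav and 25.6 CPM for Syt1. Against WT in edgeR, elav and Syt1 were among those called in all 4 strains that lack CBS. In CBS-/-(5), CBS-/-(8), CBS-/-CSE-/-(1) and CBS-/-CSE-/-(2) the genes called lower were 3, 3, 2 and 2, beside 7.74, 4.67, 3.03 and 2.36% of all genes. Those called higher were 2, 1, 1 and 1, beside 1.60, 1.76, 1.15 and 1.10%. Counts of replicates differed by more than 10 times the variance of counting alone in every pair, so that each library was counted as a sample of its own.

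The members took unequal parts of the libraries. They held 0.286 and 0.210% of the counted reads in CBS-/-(5), 4.13, 1.56 and 1.98% in CBS-/-(8), 2.45, 1.71 and 1.83% in CBS-/-CSE-/-(1), 4.87 and 2.24% in CBS-/-CSE-/-(2), and 0.974, 0.474 and 1.70% in CSE-/-, against 1.10 and 2.31% in WT. CBS-/-(5) was thus the only strain in which every library lay below both WT libraries and below all libraries of the other 4 deletion strains. In RNA from whole heads, fewer cells of a type and less RNA per cell cannot be told apart. Of the 47 genes, 46 had counts in some library and 23 were over 3 counts in every library, while gammaTry and Jon66Cii were never over 3 counts.

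**Figure D1:**
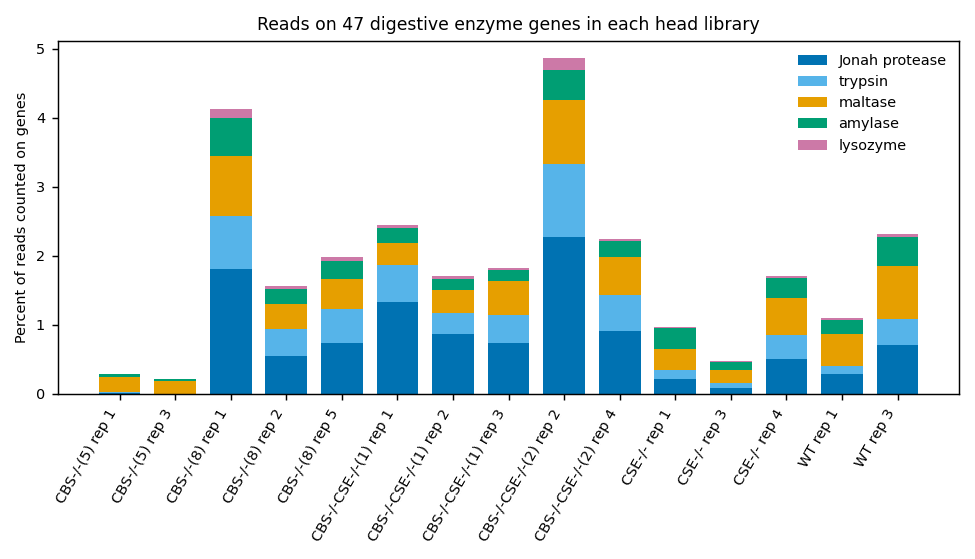
Percent of the reads counted on genes that fell on the 47 digestive enzyme genes, by library, with 1 bar per library and 1 colour per family. The 2 bars of CBS-/-(5) stand at 0.286 and 0.210% and consist mostly of maltase reads, whereas those of CBS-/-CSE-/-(2) reach 4.87 and 2.24% and those of WT 1.10 and 2.31%.

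Replicates of 1 strain also differed, and they did so for most members at once. Among the members with at least 30 counts over a strain, replicate 1 was the higher library for 21 of 22 in CBS-/-(5), replicate 1 the highest for 32 of 34 in CBS-/-(8), replicate 2 the higher for 39 of 43 in CBS-/-CSE-/-(2), replicate 4 the highest for 27 of 30 in CSE-/-, and replicate 3 the higher for 36 of 37 in WT. Only CBS-/-CSE-/-(1) was split, with replicate 1 highest for 18 of 41 members, replicate 2 for 6 and replicate 3 for 17. The exception in CBS-/-(5) and in WT was in both cases LysP. The members of a library are therefore not independent readings of a strain.

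Each strain was set against WT in edgeR, with p-values adjusted over all genes tested and an adjusted p under 0.05 taken as a change. In CBS-/-(5), 33 of the 36 members tested were lower and 0 higher, with a median log2 fold change of -6.15, whereas 7.74% of all genes tested were lower and 1.60% higher, and their median was 0.03. With genes at 0 in all CBS-/-(5) libraries set to their bound, the median was -6.06. Each family had members that fell, namely 13 of 14 Jonah proteases, 5 of 5 trypsins, 8 of 10 maltases, 3 of 3 amylase genes and 4 of 4 lysozymes tested. The other 11 members had too few counts to be tested. A member could enter the test through its WT counts alone, so these counts describe the members and are no measure of how many of them differ. No member was higher in DESeq2 either, and 35 members had an unadjusted p under 0.05, beside 30.0% of all genes. The calls rest on WT replicate 3, the WT library with more of these reads. Without it 0 members were called, as were 0 of all 9453 genes tested in that fit, although all 37 members tested kept a negative log2 fold change and 35 had an unadjusted p under 0.05. That fit rests on a single WT library, which is assumed to vary like the other group. Without WT replicate 1, 31 members were lower, beside 11.9% of all genes, and without either CBS-/-(5) library 35 or 36, beside 5.84 and 5.88%. Of the members, Amy-p, alphaTry, betaTry, Jon65Aiv and Jon74E were not called without WT replicate 1 (edgeR adjusted p = 0.053 to 0.066).

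Fewer members were called in the other 4 strains. In CBS-/-(8), 8 of 40 members tested were lower and 1 higher, with a median log2 fold change of 0.46, beside 4.67% of all genes lower and 1.76% higher. In CBS-/-CSE-/-(1), 1 of 41 was lower and 2 higher (median 0.41), beside 3.03% and 1.15% of all genes. In CBS-/-CSE-/-(2), 2 of 42 were lower and 3 higher (median 1.62), beside 2.36% and 1.10%. In CSE-/-, 4 of 36 were lower and 0 higher (median -1.11), beside 0.565% and 0.213%. DESeq2 gave 0 higher in CSE-/- as well. With an unadjusted p under 0.05 there were 14 members in CBS-/-(8), 11 in CBS-/-CSE-/-(1), 26 in CBS-/-CSE-/-(2) and 9 in CSE-/-, in either direction, beside 20.0, 18.6, 21.5 and 7.10% of all genes. For CBS-/-CSE-/-(1) the share called was near that of all genes, so its count says little of the members. All 5 comparisons share the 2 WT libraries.

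Single libraries moved these counts too, and those of all genes with them. In CBS-/-(8), 11 members were higher without its replicate 2, beside 2.63% of all genes, and 2 without its replicate 5, beside 1.37%. Without its replicate 1, 10 were lower, beside 11.4% of all genes. For CBS-/-CSE-/-(1), without replicate 3 the counts were 5 lower and 3 higher, beside 3.59 and 1.16% of all genes. Without its replicate 1 or 2 they were 0 and 0, without WT replicate 1 they were 1 and 0, and without WT replicate 3 they were 0 and 1, beside 0.589 to 2.02% of all genes lower and 0.264 to 0.777% higher. For CBS-/-CSE-/-(2), 30 members were higher without replicate 4, beside 3.86% of all genes, and 10 without replicate 2, beside 1.97%. Without WT replicate 3 there were 5, beside 0.719%, and without WT replicate 1 there was 1, beside 0.234%. In the same strain 3 were lower without replicate 2 or 4, beside 3.98 and 3.53% of all genes, and 1 without either WT library, beside 0.588 to 0.701%. For CSE-/-, 23 were lower without replicate 4, the replicate with the most reads on the members, beside 2.78% of all genes. There 1 was lower without replicate 1 or 3, beside 0.108 and 0.361%, and 2 without WT replicate 3, beside 0.325%. The median of CBS-/-(8) was -0.16 without WT replicate 1 and -0.43 without CBS-/-(8) replicate 1, and that of CBS-/-CSE-/-(1) was -0.22 without WT replicate 1 and -0.14 without its own replicate 3. The sign of the median thus depended on single libraries in those 2 strains.

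**Figure D2:**
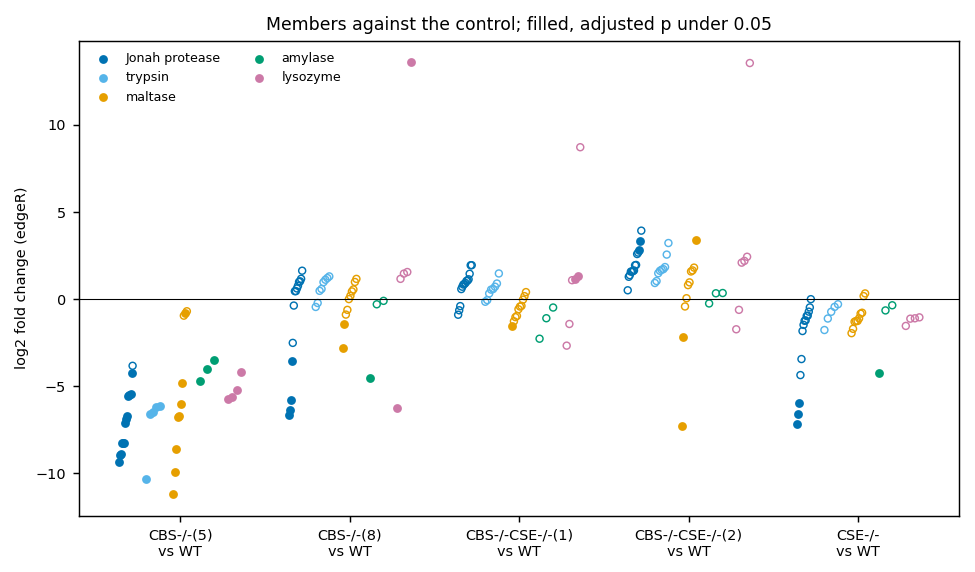
Log2 fold change of each member tested in each deletion strain against WT, from edgeR, coloured by family, with filled points for an adjusted p under 0.05 and open points for the rest. In CBS-/-(5) 33 of 36 points are filled and all lie below 0, down to -11.18 for Mal-A7. In the other 4 strains most points are open. In CBS-/-CSE-/-(2) 36 of 42 lie above 0, and in CSE-/- 33 of 36 lie below it. In CBS-/-(8) 24 lie above and 16 below, and in CBS-/-CSE-/-(1) 23 above and 18 below.

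Among the Jonah proteases, the chymotrypsin-like enzymes of the midgut, 9 had similar patterns. Jon25Bi took the most reads of the family. Jon25Bi had 5.77 and 1.09 CPM in CBS-/-(5), 3863, 1004 and 1383 CPM in CBS-/-(8), 3036, 2393 and 1489 CPM in CBS-/-CSE-/-(1), 5635 and 2231 CPM in CBS-/-CSE-/-(2) and 422, 189 and 1092 CPM in CSE-/-, against 859 and 1600 CPM in WT. The CBS-/-(5) libraries lay far below all others (log2 fold change -8.91 ± 0.84 (SE), edgeR adjusted p = 0.00585), a 358-fold lower mean level than in WT. Both CBS-/-CSE-/-(2) libraries exceeded both WT libraries, yet the difference did not pass the test (log2 fold change 1.59 ± 0.54 (SE), edgeR adjusted p = 0.172), which it passed without replicate 4 (edgeR adjusted p = 0.0017). Jon25Bii, Jon25Biii, Jon99Ci, Jon99Cii, Jon99Ciii, Jon65Aiv and Jon74E were likewise lower in CBS-/-(5), with log2 fold changes between -5.44 (Jon74E) and -9.33 (Jon25Biii). The ninth, Jon65Aiii, had 53.7 and 5.79 CPM in CBS-/-(5) and 159.7 and 457 CPM in WT and did not pass (log2 fold change -3.82 ± 1.07 (SE), edgeR adjusted p = 0.0796). All calls of these 9 against WT were in CBS-/-(5). Jon66Ci and Jon66Cii reached at most 2.36 and 0.197 CPM and were not tested.

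Another set of Jonah genes had a different pattern. Jon44E, Jon65Ai, Jon65Aii, Jon99Fi and Jon99Fii, grouped here after their values were seen, did not exceed 1.46 CPM in any library of CBS-/-(5), CBS-/-(8) and CSE-/-, whereas they were at 1.68 to 25.3 CPM in WT. Jon65Ai had 0.109 and 0.109 CPM in CBS-/-(5), 0.730, 0.116 and 0 CPM in CBS-/-(8), 0.776, 15.4 and 34.0 CPM in CBS-/-CSE-/-(1), 110.0 and 53.9 CPM in CBS-/-CSE-/-(2) and 0.0681, 0.164 and 0 CPM in CSE-/-, against 10.7 and 11.9 CPM in WT. Jon65Ai was lower than in WT in CBS-/-(8) (log2 fold change -5.79 ± 0.67 (SE), edgeR adjusted p = 0.000469) and in CSE-/- (log2 fold change -7.18 ± 0.56 (SE), edgeR adjusted p = 0.000553), where it had 3 counts in all against 176 in WT (ratio 0.00717, exact 95% counting interval 0.00147 to 0.0213). In CBS-/-(5) it had 2 counts in all (ratio 0.00970, exact 95% counting interval 0.00117 to 0.0356, edgeR adjusted p = 0.00212). It was higher in CBS-/-CSE-/-(2), 7.26-fold (log2 fold change 2.81 ± 0.36 (SE), edgeR adjusted p = 0.0208), but not past the threshold without either WT library (edgeR adjusted p = 0.10 without replicate 1 and 0.077 without replicate 3) or in 1 fit of all 15 libraries (edgeR adjusted p = 0.13). Replicate 1 of CBS-/-CSE-/-(1) lay far below replicates 2 and 3, and the groups overlapped.

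Jon99Fii had 0 and 0.109 CPM in CBS-/-(5), 0.292, 0.232 and 0.108 CPM in CBS-/-(8), 0.345, 5.77 and 22.0 CPM in CBS-/-CSE-/-(1), 154 and 63.1 CPM in CBS-/-CSE-/-(2) and 0.409, 0.0819 and 0 CPM in CSE-/-, against 6.36 and 25.3 CPM in WT. This gene, on 3R, was lower in CBS-/-(8) (log2 fold change -6.62 ± 0.74 (SE), edgeR adjusted p = 0.000364) and in CSE-/- (log2 fold change -6.61 ± 0.90 (SE), edgeR adjusted p = 0.0136), and in CBS-/-(5) it had 1 count in all (ratio 0.00359, exact 95% counting interval 9.04e-05 to 0.0202, edgeR adjusted p = 0.0177). Its level in CBS-/-CSE-/-(2) was above WT in both libraries without passing the test (log2 fold change 2.67 ± 0.75 (SE), edgeR adjusted p = 0.122). Jon44E had 0.218 and 0.218 CPM in CBS-/-(5), 0.730, 0.349 and 0.108 CPM in CBS-/-(8), 2.59, 6.24 and 16.9 CPM in CBS-/-CSE-/-(1), 43.6 and 27.0 CPM in CBS-/-CSE-/-(2) and 0.136, 0.409 and 0.583 CPM in CSE-/-, against 2.40 and 4.37 CPM in WT. Jon44E was lower in CBS-/-(5) (log2 fold change -4.26 ± 0.65 (SE), edgeR adjusted p = 0.0160) and in CBS-/-(8) (log2 fold change -3.53 ± 0.65 (SE), edgeR adjusted p = 0.00730) and higher in CBS-/-CSE-/-(2) (log2 fold change 3.34 ± 0.40 (SE), edgeR adjusted p = 0.0166). The call in CBS-/-(8) was lost without WT replicate 3 (edgeR adjusted p = 0.12) and that in CBS-/-CSE-/-(2) without WT replicate 1 (edgeR adjusted p = 0.060). In CSE-/- its groups did not overlap, yet it did not pass (log2 fold change -3.43 ± 0.66 (SE), edgeR adjusted p = 0.0727).

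Jon65Aii, next to Jon65Ai, had 0 and 0 counts in CBS-/-(5), 2, 0 and 0 in CBS-/-(8) and 3, 1 and 0 in CSE-/-, against 27 and 64 in WT. It was at least 18.3-fold lower in CBS-/-(5), taking 3 counts per library as the bound (edgeR adjusted p = 0.0236), and lower in CBS-/-(8) (ratio 0.0139, exact 95% counting interval 0.00166 to 0.0518, edgeR adjusted p = 0.00143) and in CSE-/- (log2 fold change -5.93 ± 0.82 (SE), edgeR adjusted p = 0.0136). In CSE-/- the calls of Jon65Aii and Jon99Fii were both lost without replicate 1 or without replicate 3 (edgeR adjusted p = 0.10 to 0.14), and that of Jon65Aii also without WT replicate 3 (edgeR adjusted p = 0.12), whereas that of Jon65Ai held without each library in turn. Jon99Fi, beside Jon99Fii, had 999 and 282 counts in CBS-/-CSE-/-(2), against 14 and 24 in WT, which did not pass (log2 fold change 3.93 ± 0.82 (SE), edgeR adjusted p = 0.0649), and did so without either library of the deletion strain. The 5 genes together made 0.239 and 2.49% of the Jonah counts in CBS-/-(5), 0.0194, 0.0189 and 0.00297% in CBS-/-(8), 0.0501, 0.0920 and 0.0115% in CSE-/- and 1.71 and 2.09% in CBS-/-CSE-/-(2), against 0.854 and 0.759% in WT. The low shares in CBS-/-(8) and CSE-/- follow from how the 5 were picked. Those in CBS-/-(5), where the whole family was low, rest on 3 and 5 counts and lay on both sides of WT (95% Wilson interval 1.07 to 5.69% in replicate 3). The Jonah family as a whole took 1.81, 0.552 and 0.731% of the counted reads in CBS-/-(8), against 0.285 and 0.705% in WT. The share of the 5 genes in CBS-/-CSE-/-(1) was 0.0439% in replicate 1, 0.410% in replicate 2 and 1.33% in replicate 3.

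**Figure D3:**
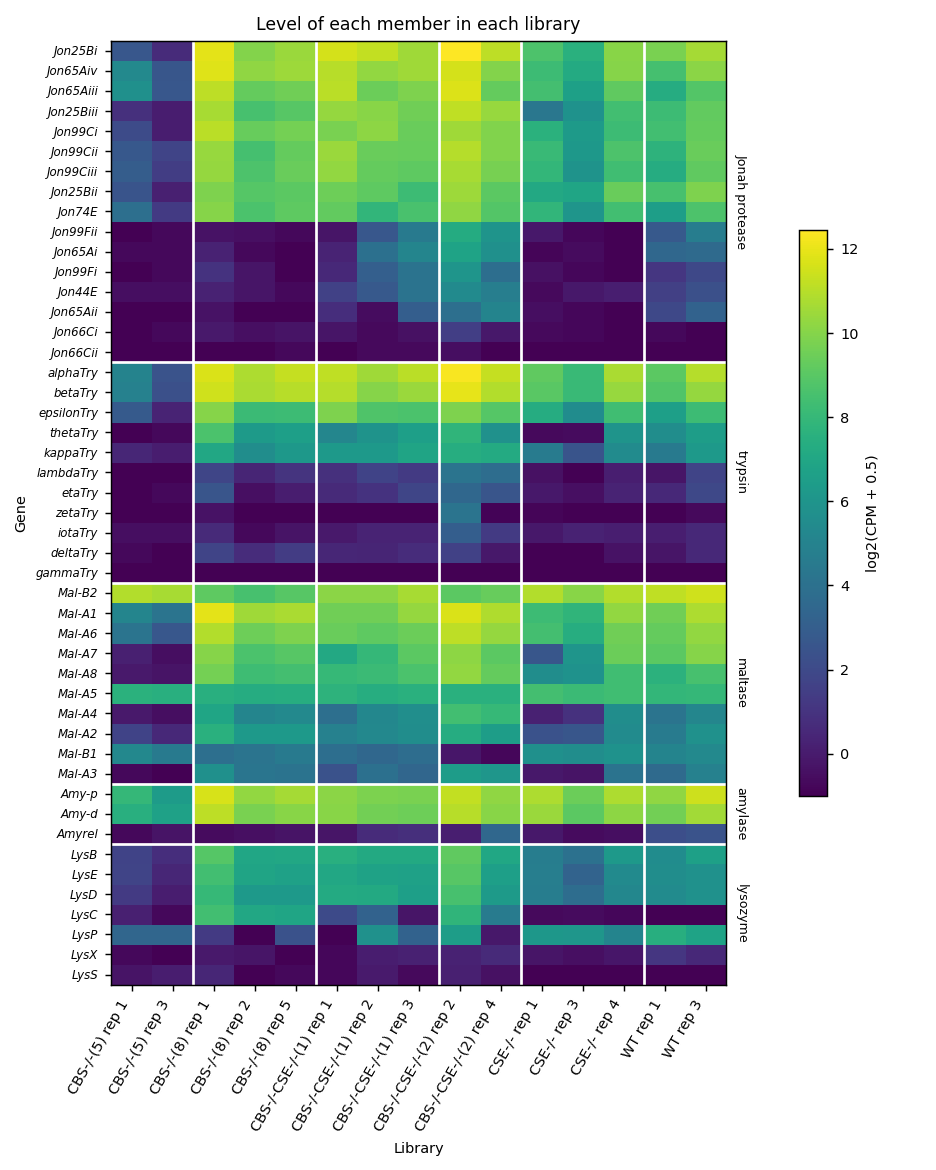
Level of each of the 47 members, as log2 of CPM plus 0.5, in each of the 15 libraries, with families separated by horizontal and strains by vertical white lines and genes ordered by mean level within a family. In the columns of CBS-/-(5), Mal-B2, Mal-A5, Amy-p and Amy-d are at 84.3 CPM or more and all other members at 53.7 CPM or less, and the Jon44E, Jon65Ai, Jon65Aii, Jon99Fi and Jon99Fii rows are at 1.46 CPM or less in CBS-/-(5), CBS-/-(8) and CSE-/-.

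The trypsins cut proteins after lysine and arginine. Of the 11, alphaTry took the most reads. alphaTry had 31.7 and 4.91 CPM in CBS-/-(5), 3277, 1765 and 2437 CPM in CBS-/-(8), 2276, 1489 and 2110 CPM in CBS-/-CSE-/-(1), 5190 and 2518 CPM in CBS-/-CSE-/-(2) and 582, 280.2 and 1696 CPM in CSE-/-, against 537 and 2000 CPM in WT. It was 69.3-fold lower in CBS-/-(5) (log2 fold change -6.57 ± 1.16 (SE), edgeR adjusted p = 0.0245), and betaTry, epsilonTry, kappaTry and thetaTry fell as well, with log2 fold changes of -6.10, -6.21, -6.50 and -10.33. For thetaTry that was 1 count in CBS-/-(5) against 1044 in WT (ratio 0.000818, exact 95% counting interval 2.07e-05 to 0.00457). All calls of trypsins against WT were in CBS-/-(5), with 0 of 8 having an unadjusted p under 0.05 in CBS-/-(8), 1 of 8 in CBS-/-CSE-/-(1), 6 of 9 in CBS-/-CSE-/-(2) and 0 of 5 in CSE-/-. The trypsins tested in CBS-/-CSE-/-(2) had log2 fold changes of 0.93 to 3.22, and alphaTry passed without replicate 4 (edgeR adjusted p = 0.018).

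The CSE-/- libraries split on thetaTry, which had 2, 2 and 648 counts in replicates 1, 3 and 4, beside 396 and 648 in WT. Its neighbours alphaTry and betaTry, 582 and 514 CPM in replicate 1, showed no such gap. The maltase Mal-A7 had a similar pattern, with 82, 799 and 7212 counts in the same libraries. The gene zetaTry was at 265 and 1 counts in CBS-/-CSE-/-(2) and at no more than 2 counts elsewhere, so 1 library carries it. The trypsins etaTry, iotaTry, lambdaTry and deltaTry stayed at or under 17.4 CPM in every library, though reads that deltaTry shares with gammaTry may be missing.

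The maltases are alpha-glucosidases that finish the digestion of starch and sucrose, and they divided into sets. Mal-A1 to Mal-A4 and Mal-A6 to Mal-A8 were lower in CBS-/-(5), with log2 fold changes of -4.83 (Mal-A2) to -11.18 (Mal-A7). Mal-A7 had 6 and 2 counts in CBS-/-(5), against 4471 and 7472 in WT. Mal-A5, in the middle of the same cluster, had 193 and 176 CPM in CBS-/-(5), against 242 and 251 CPM in WT, a far smaller fall (log2 fold change -0.82 ± 0.17 (SE), edgeR adjusted p = 0.0417), and the call was lost without either CBS-/-(5) library and without WT replicate 3 (edgeR adjusted p = 0.12 to 0.29). Mal-A5 stayed between 163 and 342 CPM in all libraries and was called in no other strain against WT.

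Mal-B2 had the largest mean CPM of the family over the 15 libraries, with Mal-A1 just below it. Mal-B2 had 1917 and 1647 CPM in CBS-/-(5), 564, 373 and 503 CPM in CBS-/-(8), 1101, 1113 and 1652 CPM in CBS-/-CSE-/-(1), 535 and 638 CPM in CBS-/-CSE-/-(2) and 1888, 1068 and 1900 CPM in CSE-/-, against 2271 and 2880 CPM in WT. It was lower in CBS-/-(8) (log2 fold change -2.77 ± 0.39 (SE), edgeR adjusted p = 0.00151) and in CBS-/-CSE-/-(2) (log2 fold change -2.17 ± 0.31 (SE), edgeR adjusted p = 0.0256). The call in CBS-/-CSE-/-(2) was lost without either WT library (edgeR adjusted p = 0.066 without replicate 1 and 0.091 without replicate 3). In CBS-/-(5) the groups did not overlap but the difference did not pass (log2 fold change -0.94 ± 0.23 (SE), edgeR adjusted p = 0.0598). Fat body markers, 13 genes, summed to 1419 to 1636 CPM in CBS-/-(5) and to 1023, 1269 and 4848 CPM in CBS-/-(8). They summed to 2048 to 2109 CPM in CBS-/-CSE-/-(1), 1798 to 2433 CPM in CBS-/-CSE-/-(2) and 1802 to 2049 CPM in CSE-/-, against 6036 to 6955 CPM in WT. Single genes could carry this sum, since Lsp1beta, Lsp2 and Yp3 reached 3041, 2121 and 1773 CPM in their highest library. The yolk protein genes Yp1, Yp2 and Yp3 ranged from 0.137 to 647, 0.957 to 1243 and 81.7 to 1773 CPM over the libraries. The sum is therefore no plain measure of fat body, and the source of the yolk protein reads was not tested. The part of the fat body markers in the level of Mal-B2 was not tested.

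Mal-B1 had 38.0 and 22.4 CPM in CBS-/-(5), 14.5, 17.7 and 22.7 CPM in CBS-/-(8), 13.9, 10.8 and 13.6 CPM in CBS-/-CSE-/-(1), 0.393 and 0.0995 CPM in CBS-/-CSE-/-(2) and 53.0, 47.6 and 58.0 CPM in CSE-/-, against 33.1 and 40.5 CPM in WT. Mal-B1, which lies just before Mal-B2, was lower in CBS-/-(8) (log2 fold change -1.40 ± 0.29 (SE), edgeR adjusted p = 0.0131) and in CBS-/-CSE-/-(1) (log2 fold change -1.52 ± 0.26 (SE), edgeR adjusted p = 0.0223), and nearly absent from CBS-/-CSE-/-(2), at 6 and 2 counts (log2 fold change -7.30 ± 0.47 (SE), edgeR adjusted p = 0.00471). That last difference, 149-fold, held without each library in turn. The call in CBS-/-(8) was lost without WT replicate 3 (edgeR adjusted p = 0.19). That in CBS-/-CSE-/-(1) was lost without WT replicate 3, its own replicate 1 or its own replicate 2 (edgeR adjusted p = 0.058 to 0.13). In CBS-/-(5) Mal-B1 overlapped with WT (log2 fold change -0.69 ± 0.31 (SE), edgeR adjusted p = 0.200), and in CSE-/- all libraries were above WT without passing (log2 fold change 0.33 ± 0.33 (SE), edgeR adjusted p = 0.95).

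Mal-A5, Mal-B1 and Mal-B2 together made 97.4 and 98.6% of the maltase counts in CBS-/-(5), 8.75, 15.3 and 16% in CBS-/-(8), 41.6, 40.0 and 38.1% in CBS-/-CSE-/-(1), 7.79 and 14.8% in CBS-/-CSE-/-(2), and 76.2, 73.0 and 42.2% in CSE-/-, against 54.0 and 41.2% in WT. These 3 are the maltases that fell least in CBS-/-(5), so their high share there follows from how they were grouped. Outside CBS-/-(5) the make-up of the family ranged from mostly these 3 genes to mostly the other 7. Of those 7, Mal-A4 rose in CBS-/-CSE-/-(2), with 337 and 254 CPM against 17.4 and 35.3 CPM in WT (log2 fold change 3.42 ± 0.44 (SE), edgeR adjusted p = 0.0204), a call that held without each library in turn but was lost in 1 fit of all 15 libraries (edgeR adjusted p = 0.20). In CSE-/- it had 0.681, 1.39 and 47.3 CPM, so that replicates 1 and 3 lay below WT and replicate 4 above it.

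Amy-p and Amy-d are the proximal and distal alpha-amylase genes, of which Amy-p took more reads. Amy-p had 249 and 84.3 CPM in CBS-/-(5), 3260, 1238 and 1614 CPM in CBS-/-(8), 1128, 881 and 852 CPM in CBS-/-CSE-/-(1), 2369 and 1180 CPM in CBS-/-CSE-/-(2) and 1756, 689 and 1792 CPM in CSE-/-, against 1204 and 2741 CPM in WT. The fall of Amy-p in CBS-/-(5) was 11.8-fold (log2 fold change -4.01 ± 0.69 (SE), edgeR adjusted p = 0.0232) and that of Amy-d 8.24-fold (log2 fold change -3.48 ± 0.49 (SE), edgeR adjusted p = 0.0133). Neither was called in another strain. In CSE-/- Amy-p and Amy-d made 32.3, 25.7 and 17.3% of all member counts, against 18 and 18.6% in WT.

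Amyrel had 0.109 and 0.328 CPM in CBS-/-(5), 0.146, 0.232 and 0.325 CPM in CBS-/-(8), 0.345, 1.09 and 1.23 CPM in CBS-/-CSE-/-(1), 0.590 and 10.8 CPM in CBS-/-CSE-/-(2) and 0.409, 0.164 and 0.194 CPM in CSE-/-, against 4.20 and 4.92 CPM in WT. Amyrel, the amylase-related gene of the family, had another pattern. It was lower in CBS-/-(5) (log2 fold change -4.68 ± 0.55 (SE), edgeR adjusted p = 0.00855), in CBS-/-(8) (log2 fold change -4.55 ± 0.52 (SE), edgeR adjusted p = 0.000423) and in CSE-/- (log2 fold change -4.25 ± 0.58 (SE), edgeR adjusted p = 0.0136), where the call was lost without replicate 1, replicate 3 or WT replicate 3 (edgeR adjusted p = 0.0504 to 0.114). All 3 libraries of CBS-/-CSE-/-(1) were below WT without passing (log2 fold change -2.27 ± 0.55 (SE), edgeR adjusted p = 0.0675). The 2 libraries of CBS-/-CSE-/-(2) lay on either side of WT.

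**Figure D4:**
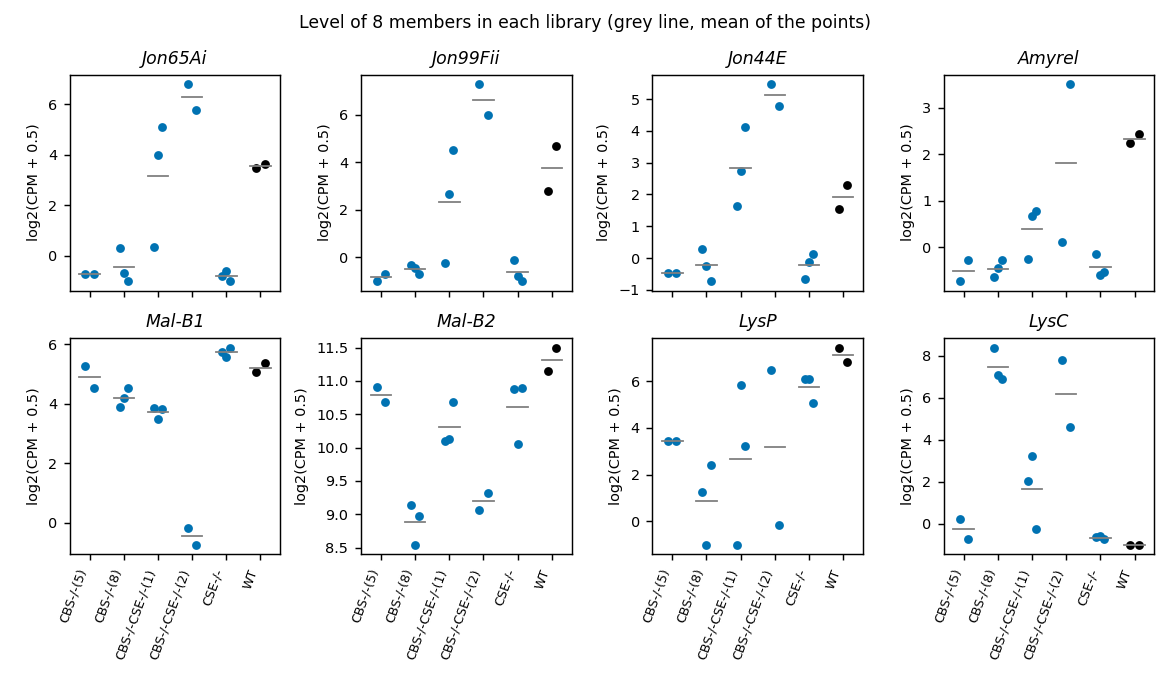
Level of 8 members, as log2 of CPM plus 0.5, in each library, 1 panel per gene with its own scale, with blue points for the deletion strains, black points for WT and a grey line at the mean of the plotted values. Jon65Ai, Jon99Fii, Jon44E and Amyrel are near the bottom in CBS-/-(5), CBS-/-(8) and CSE-/-, Mal-B1 is near the bottom in CBS-/-CSE-/-(2) alone, and LysC is at the bottom in WT.

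Among the lysozymes, LysB took the most reads. LysB had 2.72 and 1.20 CPM in CBS-/-(5), 479, 126 and 133 CPM in CBS-/-(8), 180.2, 146 and 144 CPM in CBS-/-CSE-/-(1), 582 and 128 CPM in CBS-/-CSE-/-(2) and 25.8, 15.6 and 74.4 CPM in CSE-/-, against 45.7 and 98.3 CPM in WT. LysB, LysD and LysE were lower in CBS-/-(5), with log2 fold changes of -5.62, -5.70 and -5.19. LysD (log2 fold change 1.35 ± 0.25 (SE), edgeR adjusted p = 0.0287) and LysE (log2 fold change 1.15 ± 0.23 (SE), edgeR adjusted p = 0.0362) were higher in CBS-/-CSE-/-(1), the only members called so in that strain. LysD had 149, 143 and 95.8 CPM there, against 44.0 and 55.6 CPM in WT, and both calls were lost without WT replicate 1, WT replicate 3, or replicate 1 or 2 of the strain (edgeR adjusted p = 0.056 to 0.28). LysB was above WT in both CBS-/-CSE-/-(2) libraries (log2 fold change 2.20 ± 0.75 (SE), edgeR adjusted p = 0.172) and in all 3 CBS-/-(8) libraries (log2 fold change 1.47 ± 0.67 (SE), edgeR adjusted p = 0.248) without passing. LysX had 0 to 0.995 CPM in the deletion strains, against 1.68 and 0.957 CPM in WT, and LysS stayed at or under 0.876 CPM.

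LysP, the lysozyme known from the salivary gland, varied on its own. LysP had 10.2 and 10.3 CPM in CBS-/-(5), 1.90, 0 and 4.77 CPM in CBS-/-(8), 0, 56.3 and 8.96 CPM in CBS-/-CSE-/-(1), 89.2 and 0.398 CPM in CBS-/-CSE-/-(2) and 68.3, 67.5 and 33.3 CPM in CSE-/-, against 171 and 112 CPM in WT. It was 63.5-fold lower in CBS-/-(8) (log2 fold change -6.27 ± 0.80 (SE), edgeR adjusted p = 0.000822) and 13.8-fold lower in CBS-/-(5) (log2 fold change -4.16 ± 0.22 (SE), edgeR adjusted p = 0.00146), where its 2 libraries were nearly equal. Both calls of LysP were lost in 1 fit of all 15 libraries (edgeR adjusted p = 0.052 in CBS-/-(8) and 0.24 in CBS-/-(5)). Within the double deletions it was present in CBS-/-CSE-/-(1) replicate 2 and CBS-/-CSE-/-(2) replicate 2 and at or near 0 in CBS-/-CSE-/-(1) replicate 1 and CBS-/-CSE-/-(2) replicate 4. Neither difference from WT passed there (log2 fold change -2.66 ± 1.31 (SE), edgeR adjusted p = 0.329 in CBS-/-CSE-/-(1) and log2 fold change -1.73 ± 1.59 (SE), edgeR adjusted p = 0.572 in CBS-/-CSE-/-(2)). In CSE-/- the 3 libraries were below WT and did not pass (log2 fold change -1.53 ± 0.33 (SE), edgeR adjusted p = 0.115).

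LysC is annotated as a pseudogene of 242 bp on 3L (1210485 to 1210726) whose end overlaps that of LysD on the other strand. It had 6 and 1 counts in CBS-/-(5), 2265, 1157 and 1103 in CBS-/-(8), 41, 189 and 5 in CBS-/-CSE-/-(1), 3372 and 483 in CBS-/-CSE-/-(2) and 2, 2 and 1 in CSE-/-, against 0 and 0 in WT, where 0 counts allow up to 3 per library. In CBS-/-(8) it was at least 506-fold higher, taking 3 counts per WT library as the bound (edgeR adjusted p = 0.000152). In CBS-/-CSE-/-(2) it was at least 318-fold higher without passing the test (edgeR adjusted p = 0.0529), which it passed without either library of that strain, in DESeq2, with RLE normalization, with no filter on low counts and in the fit of all 15 libraries. In CBS-/-CSE-/-(1) the bound was 11.1-fold (edgeR adjusted p = 0.124). LysD, which it overlaps, had 367 and 407 counts in WT.

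The 2 lines of a genotype were then compared with each other, which shows what differs between lines that lack the same gene. CBS-/-(5) had 28 members lower and 1 higher than CBS-/-(8), of 33 tested, beside 3.15% of all genes lower and 0.711% higher. The median log2 fold change was -7.02. Here too a member could enter the test through its CBS-/-(8) counts alone, so these counts are no measure of how many members differ. All 9 Jonah proteases tested, 6 of 7 trypsins, 7 of 10 maltases, both amylases tested and 4 of 5 lysozymes were lower. The exception was Mal-B2, higher in CBS-/-(5) (log2 fold change 1.79 ± 0.30 (SE), edgeR adjusted p = 0.0124), a call lost without CBS-/-(5) replicate 1 or CBS-/-(8) replicate 5. Mal-A5, Mal-B1, LysP (log2 fold change 2.09 ± 0.84 (SE), edgeR adjusted p = 0.432) and lambdaTry, at 0 in CBS-/-(5) and at least 5.50-fold lower (edgeR adjusted p = 0.0619), did not pass. With an unadjusted p under 0.05 there were 32, beside 9.76% of all genes. No WT library enters this comparison, and without each library in turn 26 to 29 members were lower, beside 2.22 to 5.41% of all genes. The largest differences were those of thetaTry (-11.61), Mal-A7 (-10.61) and Mal-A8 (-10.39).

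CBS-/-CSE-/-(1) and CBS-/-CSE-/-(2) differed in few members, 2 lower and 1 higher in CBS-/-CSE-/-(1) of 42 tested, with a median log2 fold change of -0.98, beside 0.218% of all genes lower and 0.135% higher. Mal-B1 was higher in CBS-/-CSE-/-(1), 51.9-fold (log2 fold change 5.79 ± 0.48 (SE), edgeR adjusted p = 0.00333), also without each library in turn. Lower were lambdaTry (log2 fold change -2.87 ± 0.34 (SE), edgeR adjusted p = 0.0158) and Mal-A3 (log2 fold change -2.85 ± 0.43 (SE), edgeR adjusted p = 0.0498). Both of these calls were lost without CBS-/-CSE-/-(1) replicate 2 or 3 or CBS-/-CSE-/-(2) replicate 2 (edgeR adjusted p = 0.063 to 0.14), which left 0 lower. Without CBS-/-CSE-/-(2) replicate 4 that of Mal-A3 was lost too (edgeR adjusted p = 0.067), although 4 members were then lower, and without CBS-/-CSE-/-(1) replicate 1 there were 3. With an unadjusted p under 0.05 there were 22, beside 5.46% of all genes. Mal-A4 (log2 fold change -3.02 ± 0.52 (SE), edgeR adjusted p = 0.0785), Jon99Fii (log2 fold change -3.31 ± 1.10 (SE), edgeR adjusted p = 0.556) and LysC (log2 fold change -4.77 ± 1.06 (SE), edgeR adjusted p = 0.186) had differences as large and did not pass.

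Over all 6 strains in 1 fit of the 15 libraries, 39 of 42 members tested differed among strains, beside 11.6% of all genes. Those with the lowest adjusted p were Mal-B1 (1.17e-05 in edgeR), Jon44E (9.96e-05), LysC (0.000211) and Jon65Ai (0.000352). The 3 that did not pass were LysX, LysP and thetaTry (edgeR adjusted p = 0.0968, 0.164 and 0.138). Leaving out each library in turn gave 24 to 39 members, and a block for the replicate number gave fewer. The shares of all genes in these other fits are not given here. Against WT, 25 of the 47 members were called in 1 strain only, 5 in 2, 5 in 3 and Jon65Ai in 4, while 11 were called in none, 5 of which were never tested.

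Other secreted digestive enzymes, a list of 41 genes matched by symbol, are given beside the members. Of 27 tested, 23 were lower in CBS-/-(5) than in WT (median log2 fold change -7.60), beside 7.74% of all genes. In CBS-/-(8) 4 were lower and 4 higher of 33 (median -0.16), beside 4.67 and 1.76%. In CBS-/-CSE-/-(1) 1 was lower of 34 (median -0.18), beside 3.03%, in CBS-/-CSE-/-(2) 2 were higher of 34 (median 1.41), beside 1.10%, and in CSE-/- 6 were lower of 31 (median -2.51), beside 0.565%. Those in CBS-/-(5) were lost without WT replicate 3, as were the calls of all genes. Between the lines, 23 of 29 were lower in CBS-/-(5) than in CBS-/-(8), beside 3.15% of all genes, and 2 of 34 lower in CBS-/-CSE-/-(1) than in CBS-/-CSE-/-(2), beside 0.218%. A listed gene could enter a test through the group with more counts alone, so these counts do not measure how many listed genes differ. The median over all genes lay between -0.02 and 0.04 in all 7 comparisons. Their summed level was 3348 to 4173 CPM in CBS-/-(5), 10246 to 25718 CPM in CBS-/-(8), 13069 to 18249 CPM in CBS-/-CSE-/-(1), 14012 to 25076 CPM in CBS-/-CSE-/-(2) and 3708 to 6197 CPM in CSE-/-, against 5958 to 8982 CPM in WT.

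Of the 4 genes of that list with the highest mean CPM, CG8329 had 3770 and 3198 CPM in CBS-/-(5), against 2136 and 1875 CPM in WT. In edgeR it was called in no strain. CG12374 had 82.1 and 5.24 CPM in CBS-/-(5), against 194 and 1493 CPM in WT, and yip7 63.2 and 8.85 CPM, against 169 and 562 CPM in WT. Neither passed (edgeR adjusted p = 0.10 and 0.076), although yip7 was higher in CBS-/-(8) (log2 fold change 2.28 ± 0.61 (SE), edgeR adjusted p = 0.0486). DESeq2 called yip7 in CBS-/-(5) and not in CBS-/-(8), and it called both CG8329 and CG12374 in CBS-/-CSE-/-(1). The alpha-glucosidase gene tobi, known as a target of insulin and glucagon-like signalling, had 213 and 109 CPM in CBS-/-(5), 146, 217 and 304 CPM in CBS-/-CSE-/-(1) and 31.0, 20.8 and 55.0 CPM in CSE-/-, against 2187 and 2378 CPM in WT. It was lower in these 3 strains (log2 fold change -4.23, -3.30 and -6.14, edgeR adjusted p = 0.0049, 0.0076 and 0.0019). The next gene by mean CPM, CG18180, which had more counts in all than tobi and is named here after its values were seen, was lower in CBS-/-(5). CG31681 and CG30031 were at 0 in all libraries.

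Genes of the midgut that are not digestive enzymes made another list. Of its 22 genes, 3 of 11 tested were lower in CBS-/-(5) than in WT (Peritrophin-15a, Vha100-4 and pros), beside 7.74% of all genes. The median log2 fold change of those tested was -0.08. The list includes genes that also act outside the gut, so its medians and sums do not stand for the gut alone. In CBS-/-(8) 1 of 14 was lower (PGRP-SC2), beside 4.67% of all genes, and in CBS-/-CSE-/-(1) 1 of 14 (pros), beside 3.03%. In CBS-/-CSE-/-(2) 1 of 18 was higher (PGRP-SC1a), beside 1.10%. Such single calls say little of the list. In CSE-/- edgeR called 0 of 12, with 1 at an unadjusted p under 0.05, and DESeq2 called PGRP-SC2. Between the lines, 4 of 15 were lower in CBS-/-(5) than in CBS-/-(8) (Peritrophin-15a, Vha100-4, mex1 and GATAe), with a median of -0.35, beside 3.15% of all genes. Between CBS-/-CSE-/-(1) and CBS-/-CSE-/-(2) edgeR and DESeq2 both called 0 of 18, with 4 at an unadjusted p under 0.05. Their sum was 132 to 156 CPM in CBS-/-(5), 183 to 232 CPM in CBS-/-(8), 131 to 145 CPM in CBS-/-CSE-/-(1), 148 to 239 CPM in CBS-/-CSE-/-(2) and 109 to 156 CPM in CSE-/-, against 168 to 247 CPM in WT. Those with the most reads were PGRP-SC2, a gut amidase, and Myo31DF, NPF and pros, which also act outside the gut. PGRP-SC2 had 19.4 and 0.546 CPM in CBS-/-(5) and 7.30, 11.4 and 6.18 CPM in CBS-/-(8), against 41.1 and 114 CPM in WT. It did not pass in CBS-/-(5) (log2 fold change -3.40 ± 1.21 (SE), edgeR adjusted p = 0.128). In CBS-/-(8) it was lower (log2 fold change -3.68 ± 0.44 (SE), edgeR adjusted p = 0.000525). Between these 2 lines its log2 fold change was 0.21 ± 0.90 (SE). Peritrophin-15b and Npc2e were at 0 in all libraries.

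Among 18 regulators that have been linked to digestive enzyme genes, 13 to 16 were tested against WT in each strain. AkhR in CBS-/-(8) and srp in CBS-/-CSE-/-(2) were the only ones called, both lower, beside 4.67 and 2.36% of all genes. GATAe, on this list too, was the only one called between lines in edgeR, lower in CBS-/-(5) than in CBS-/-(8), beside 3.15% of all genes. DESeq2 called AkhR there as well. Muscle genes summed to 4475 to 7941 CPM in the deletion strains, against 4125 to 6474 CPM in WT. Testis and accessory gland genes summed to 1.09 to 23.1 CPM, with Acp26Ab, Acp95EF, Acp29AB and Mst84Da at 0 in all libraries. The highest sums were 23.1 CPM in CSE-/- replicate 1 and 14.7 CPM in CBS-/-CSE-/-(1) replicate 2. All other libraries were at or under 4.25 CPM, and the source of these reads was not tested. Of the Malpighian tubule genes, Irk3 alone was called against WT, higher in every strain. Between lines Oatp58Da alone was called, lower in CBS-/-(5) than in CBS-/-(8). How much gut tissue each head sample held, and its part in the levels of the members, was not tested.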

How the data were processed

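The 15 libraries hold polyadenylated RNA of heads from naive males, prepared by the authors with a strand-keeping kit for an Illumina NextSeq instrument. The authors trimmed reads with Trimmomatic, aligned them to dm6 with STAR within PPLine and deposited the count of reads per gene for each library, without normalization. Per the labels' processing notes SAMtools and featureCounts were also used, and their versions, the strand setting, the treatment of reads with several matches and the annotation release are not given in the sources used here. The study states 3 biological replicates, and 2 or 3 libraries per strain were analysed here. Of the 17453 genes, 17179 had a symbol in the Ensembl annotation, release 115. Reads with no feature (2.84 to 7.24%) or of ambiguous origin (5.12 to 8.27%) were left out of library sizes.

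Each strain was compared with WT, and each pair of lines of a genotype, by a separate model in edgeR 4.0.16 under R 4.3.3, after the study's methods (filter by filterByExpr, scaling by TMM, legacy quasi-likelihood F test). P-values were adjusted by Benjamini-Hochberg over all genes tested, with a threshold of 0.05. The SE was taken as the size of the log2 fold change over the root of its F. Differences among the 6 strains were tested in 1 fit. Folds are ratios of mean CPM. Intervals of ratios are exact, for 95%, and like the floor of 3 counts cover counting error only. The procedure was tested on simulated data.

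Members were fixed by symbol, and all could be named, with values per library for the highest member of each family, up to 12 called in most strains and up to 4 called higher. Marker lists were written from general knowledge, and of their genes those 4 with the highest CPM and those at 0 are named, with called genes where few. Members and lists were chosen with earlier results of these data known. Alternatives were DESeq2 1.42.0, RLE normalization, dropping the low-count filter, a minimum of 10 counts per library, pooling all 15 libraries in 1 model, legacy off, library sizes without the members, a block for the replicate number and leaving out each library. Tables and plots used Python 3.11.15, pandas 2.3.3, numpy 2.4.6, scipy 1.17.1 and matplotlib 3.10.9.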

Additional observations from a re-analysis of the deposited data

Results flagged for a closer look

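CBS-/-(5) and CBS-/-(8), which lack the same gene, differed in 29 members by a direct test between the lines in edgeR. Of these 28 were lower and 1 higher in CBS-/-(5), beside 3.15% of all genes lower and 0.711% higher. A member could enter that test through its CBS-/-(8) counts alone. CBS-/-CSE-/-(1) and CBS-/-CSE-/-(2) differed in 3 members by the same test. Of these 2 were lower and 1 higher in CBS-/-CSE-/-(1), beside 0.218% of all genes lower and 0.135% higher.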

How the results depend on the processing

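Of 1306 alternative values of 111 differences of single members, 0 changed direction, 1125 stayed on the same side of the threshold, 116 lost their call and 65 gained one. RLE normalization, the legacy option and library sizes without the members moved little, with RLE leaving 1 member lower between CBS-/-CSE-/-(1) and CBS-/-CSE-/-(2). DESeq2 called 2 lower and 6 higher in CBS-/-CSE-/-(1) against WT, beside 3.27 and 1.71% of all genes. It called 14 higher in CBS-/-CSE-/-(2), beside 2.22%, and 7 lower in CSE-/-, beside 0.881%. Between the double deletion lines it called 8 lower and 2 higher, beside 0.682 and 0.345%. With no filter on low counts, 19 were lower in CBS-/-(5), beside 2.25% of all genes, and 10 higher in CBS-/-(8), beside 3.01%. There were 2 lower and 4 higher in CBS-/-CSE-/-(1), beside 2.84 and 1.25%, and 27 higher in CBS-/-CSE-/-(2), beside 3.26%. In CSE-/- 7 were lower, beside 0.815%, and 7 between the double deletion lines, beside 0.603%. With at least 10 counts in every library, which removes members that fell, 14 were lower in CBS-/-(5), beside 7.60% of all genes. In CBS-/-(8) 2 were lower and 0 higher, beside 4.54 and 1.43%. There was 1 lower in CBS-/-CSE-/-(2), beside 2.89%, and 0 lower in CSE-/-, beside 0.402%. Between lines, 12 were lower in CBS-/-(5) against CBS-/-(8), beside 0.954%, and 0 higher in CBS-/-CSE-/-(1) against CBS-/-CSE-/-(2), beside 0.0910%. In 1 model of all 15 libraries, 0 were higher in CBS-/-CSE-/-(1), beside 1.59% of all genes. In CSE-/- 2 were lower, beside 0.876%, and 0 between the double deletion lines, beside 0.171%. In that model 21 calls of single members were lost, 8 of them in CBS-/-(5). Those of Mal-A4 and Jon65Ai in CBS-/-CSE-/-(2), LysP in CBS-/-(8) and Jon65Aii and Amyrel in CSE-/- were among the rest. The cause of these shifts was not tested.

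Leaving out each library in turn gave 0 to 36 lower and 0 to 0 higher in CBS-/-(5) against WT, 6 to 10 lower and 1 to 11 higher in CBS-/-(8), 0 to 5 lower and 0 to 3 higher in CBS-/-CSE-/-(1), 1 to 3 lower and 1 to 30 higher in CBS-/-CSE-/-(2), and 1 to 23 lower and 0 to 0 higher in CSE-/-. Between lines it gave 26 to 29 lower and 0 to 1 higher in CBS-/-(5), and 0 to 4 lower and 1 to 1 higher in CBS-/-CSE-/-(1). Among the 6 strains 24 to 39 differed, where the share of all genes is not given here.

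With a replicate block, 35 members were lower in CBS-/-(5), beside 10.6% of all genes. In CBS-/-CSE-/-(1) 6 were lower and 9 higher, beside 8.13 and 4.53% of all genes. In CSE-/- 15 were lower, beside 1.89%. Among the 6 strains 13 members differed, and since the share of all genes in that fit is not given here, this count cannot be weighed. The block also raised the share of all genes called in each of these comparisons with WT. Deviations of same-numbered libraries from their strain mean correlated at -0.14 for CBS-/-(5), where both pairs give 1 value because each group holds 2 libraries. The 2 pairs correlated at 0.25 and 0.36 for CBS-/-CSE-/-(1), and at 0.06 and -0.54 for CSE-/-. The deviations of the 2 WT libraries mirror each other in every case, so these values cannot tell whether a shared number marks a pair. With the numbers crossed, an alternative chosen after seeing the data, 36 were lower in CBS-/-(5). No paired analysis was possible because at most 1 number is shared in the comparisons of CBS-/-(8) and CBS-/-CSE-/-(2) with WT and in those between lines.

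With 2 or 3 libraries per strain 1 library can set a call, and at the lowest depth 3 counts are 0.438 CPM, the level under which a member was not detectable there.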
